A study of Homo sapiens with 6 samples.

Results

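A set of 10 genes of quinone, carbonyl and enone reduction was examined in KYSE70, a human cell line from esophageal squamous cell carcinoma, and in a knockout derived from it. The members were NQO1, NQO2, CBR1, CBR3, CBR4, PTGR1, PTGR2, ADH7, POR and DHRS3, found by symbol, and all 10 were present among the 58884 genes of the table. Untreated KYSE70 cells, which carry the W24C mutant of NFE2L2, the gene that encodes the transcription factor NRF2, were compared with untreated NRF2null-KYSE70 cells, in which NFE2L2 had been cut by CRISPR-Cas9. Both lines were grown in the same RPMI1640 medium with serum, and each had 3 RNA-seq libraries. NRF2null-KYSE70 was grown from a single cell, so the comparison is between 1 clone and its parental line, and the p-values measure the spread between libraries and not between clones. Nothing in the labels says whether the libraries of a line came from separate cultures.

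Most of these enzymes use NADPH or NADH to reduce quinones, carbonyl compounds or enones, although some run mainly in the other direction or serve other electron acceptors. Quinones can cycle with oxygen and yield superoxide, and their full reduction to hydroquinones by NQO1 avoids the semiquinone that drives this cycle. Many aldehydes and enones, among them products of lipid peroxidation and some prostaglandins, can react with proteins and glutathione, and their reduction can remove this reactivity. NQO1 is among the best known NRF2 target genes, and NRF2 binds DNA with a small MAF partner at the antioxidant response element, whose core is often written TGACNNNGC.

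That core, in which N is any base, was searched on both strands in the 1000 bases before the start of the canonical transcript of each gene (GENCODE v44, hg38). It was found in 5 of the 10 members and in 32.6% of 20033 protein-coding genes. NQO1, CBR4 and POR had 1 match each, CBR1 and PTGR1 had 2 each, and NQO2, CBR3, PTGR2, ADH7 and DHRS3 had none in this window. The stretches below were chosen with the changes known. NQO1 and PTGR1 fell in NRF2null-KYSE70, whereas CBR1, which holds a match near its start, had few reads in KYSE70 and rose. Of the other members with a match, POR rose and CBR4 did not pass the test described below, and their stretches are not shown. The printed stretches are written 5′ to 3′ on the strand of the gene, with the 9 matched bases in capitals and 20 bases on either side.
NQO1 (chr16:69726987-69727035, minus strand, match 455 bases before the start): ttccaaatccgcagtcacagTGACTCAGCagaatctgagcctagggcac
PTGR1 (chr9:111600324-111600372, minus strand, match 705 bases before the start, core on the opposite strand): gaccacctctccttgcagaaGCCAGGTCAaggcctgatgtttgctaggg
CBR1 (chr21:36069845-36069893, plus strand, match 159 bases before the start, core on the opposite strand): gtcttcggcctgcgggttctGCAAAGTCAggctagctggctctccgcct
The other match of PTGR1 began 967 bases and that of CBR1 522 bases before the start, and those of CBR4 and POR began 253 and 847 bases before it. In the shorter RefSeq promoters (GRCh38.p14, 250 bases before to 50 after a start), 12 of which belonged to 8 members, CBR1 alone held a match, as did 13.3% of 35116 promoters. A match is a run of letters and does not show that NRF2 binds there. CBR3 and NQO2, which also fell, had no match in the 1000 bases.

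The libraries held between 52072801 and 63975313 reads assigned to genes. NFE2L2 itself had 9839, 9906 and 10040 normalized counts in the KYSE70 libraries and 5803, 6041 and 6434 in those of NRF2null-KYSE70, so the RNA was lower in each knockout library but far from absent. Its log2 fold change was -0.71, with a limma adjusted p of 9.37e-08. KEAP1, which was not the target of the edit, fell as well, from a mean of 9834 to 5729 normalized counts. Its log2 fold change was -0.78 (limma adjusted p = 1.2e-07), and the part of the edit in the fall of NFE2L2 RNA was not tested. The study reported remaining NFE2L2 transcript variants and a faint, smaller NRF2 band in this clone. A normalized count is the number of reads of a gene divided by 1 size factor per library. Of 10 squamous epithelial markers all were tested by limma, and 6 were higher and 4 lower in NRF2null-KYSE70, with a median log2 fold change of 0.23. KRT6A, KRT14, KRT17, SOX2, EPCAM and CDH1 rose and KRT5, TP63, DSG3 and PKP1 fell. Their summed level, to which KRT5 gave the most (means of 209917 and 124640), was 339401 to 347297 in KYSE70 and 262257 to 275037 in NRF2null-KYSE70. Of 10 markers of immune, endothelial, stromal and melanocytic cells, 7 had a mean under 10, and COL1A2 and MLANA had no read in any library. Of the 3 tested, the leukocyte marker PTPRC (means of 0.351 and 43.6 normalized counts in KYSE70 and the knockout clone) and the endothelial marker VWF (142 and 353) were higher in the clone, and the stromal marker COL1A1 (1232 and 554) was lower. PDGFRB, which was not tested, had means of 0 and 14.3. The sum of the 10, most of it from COL1A1, was 1316 to 1483 in KYSE70 and 792 to 1099 in NRF2null-KYSE70, and the part of these markers in the results below was not tested. In bulk RNA, fewer cells of a type and less RNA per cell cannot be told apart.

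The question was how the RNA of these reductases differed between the knockout clone and its parent. The members did not move as a group. At an adjusted p under 0.05 (limma on log2(normalized count + 1), Benjamini-Hochberg over 15994 tested genes), CBR3, NQO1, PTGR1 and NQO2 were lower and CBR1, PTGR2 and POR were higher in NRF2null-KYSE70, whereas CBR4, ADH7 and DHRS3 did not pass. All 10 members passed the filter on low counts, a mean of 10 or more over the 6 libraries. CBR1 passed it only through NRF2null-KYSE70, with a mean of 42.3 normalized counts there and 7.13 in KYSE70. Its place among the higher members rests partly on that line. The 4 lower and 3 higher members stand beside 28.3% of all tested genes called lower and 29.3% called higher. Scaling by total reads turned that balance over all genes, with 5381 lower and 3964 higher in place of 4519 and 4687, and left the same 7 members called in the same directions. With a log2 fold change of at least 1 in size as well, CBR3 was the 1 lower member and CBR1 the 1 higher member, where 7.43% of all genes were lower and 7.23% higher by this rule. For 6 members, every library of one line lay above every library of the other, a state found in 63.4% of all tested genes. The median log2 fold change of the 10 members was 0.06, against -0.01 over all tested genes. With 10 genes these counts are a description only, and the members are described one by one below.

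**Figure D1:**
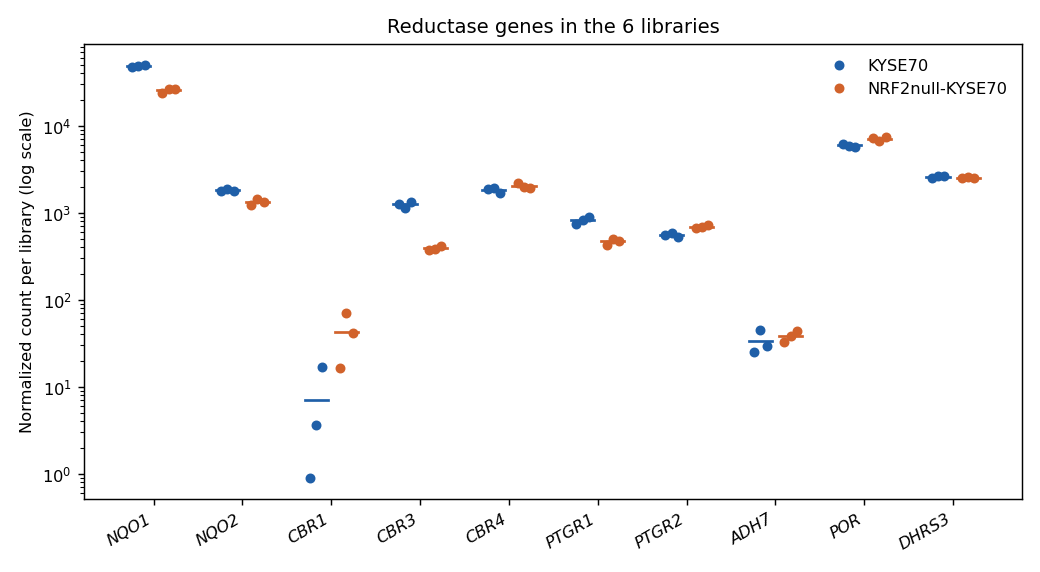
Normalized counts (log axis) of the 10 reductase genes in each of the 3 KYSE70 and 3 NRF2null-KYSE70 libraries, with a bar at the mean of each line. NQO1 lies far above the rest in both lines, CBR3 and PTGR1 drop in the knockout clone, and CBR1 and ADH7 lie near the bottom.

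Among the quinone reductases, NQO1 (ENSG00000181019, chromosome 16, 69706996 to 69726668, hg38) was by far the most abundant. It had 47096, 48890 and 50284 normalized counts in the KYSE70 libraries and 23766, 26617 and 26292 in NRF2null-KYSE70. Every knockout library was below every parental one. The means were 48757 ± 1598 and 25558 ± 1561 (SD, n = 3 libraries each), so that NQO1 fell to 52.4%. On the log2 scale the change was -0.93 ± 0.053 (SE; limma adjusted p = 1.43e-08). Although its RNA fell, NQO1 stayed among the most abundant genes of the cell. Its mean exceeded that of 99.3% of the tested genes in KYSE70 and of 97.8% in NRF2null-KYSE70.

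NQO2 (ENSG00000124588, chromosome 6, 2987987 to 3019755) encodes the related flavoprotein that prefers dihydronicotinamide riboside over NADPH as its electron donor. It had 1772, 1871 and 1776 normalized counts in the parental libraries and 1227, 1443 and 1339 in NRF2null-KYSE70, again without overlap. It fell to 74.0%, a log2 change of -0.44 ± 0.072 (SE; limma adjusted p = 0.000197). The balance between NQO1 and NQO2 was compared within each library. The ratio of NQO1 to NQO2 normalized counts lay between 26.1 and 28.3 in the KYSE70 libraries and between 18.4 and 19.6 in the NRF2null-KYSE70 libraries. On the log2 scale the difference in this ratio was -0.50, with a pooled SD of 0.055 between libraries. The exact two-sided permutation p was 0.10, which is the smallest that 3 libraries against 3 allow, and 0.10 after adjustment over the 3 pairs of relatives that were compared. When the median of neighbouring genes was subtracted (described below), the difference was -0.33. NQO1 shares 575 exon bases with the opposite-strand lncRNA ENSG00000261602 (means of 3.76 in KYSE70 and 0.761 in the clone). NQO2 shares 292 with the same-strand lncRNA LINC01011 (83.4 and 49.0) and 183 with NQO2-AS1, which had no counts. The part of these genes in the NQO1 and NQO2 values was not tested.

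The carbonyl reductases CBR1 and CBR3 are short-chain dehydrogenases/reductases encoded by neighbouring genes on chromosome 21, with 61.9 kb between them. CBR1 acts on many xenobiotic carbonyl compounds, including anthracyclines and prostaglandin E2, and CBR3 is its less studied close relative. CBR3 (ENSG00000159231, 36135079 to 36146562) had 1264, 1140 and 1342 normalized counts in the KYSE70 libraries and 375, 383 and 410 in those of NRF2null-KYSE70. The lines were far apart for CBR3, with its highest knockout library well below the lowest parental one. CBR3 fell to 31.2%, with means of 1249 ± 102 and 389.5 ± 18.1 (SD, n = 3 libraries each). Its log2 change was -1.68 ± 0.091 (SE; limma adjusted p = 8.91e-09), and 3.48% of all tested genes had a lower one. The antisense gene CBR3-AS1 shares 710 bases, or 71.1% of the exon sequence of CBR3, and had means of 135 (KYSE70) and 87.4 (NRF2null-KYSE70) normalized counts. Whether the counting used strand, and how it treated reads in the shared sequence, was not given in the sources used here. The effect of the shared sequence on the counts of CBR3 and on its level per kilobase was not tested.

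CBR1 (ENSG00000159228, 36069941 to 36073166) went the other way from a level close to the limit of detection. It had 0.889, 3.63 and 16.9 normalized counts in KYSE70, from 1, 4 and 16 reads, and 16.2, 69.6 and 41.1 in NRF2null-KYSE70, from 16, 71 and 36 reads. The lowest knockout library lay just under the highest parental one, and the libraries of each line differed widely among themselves. CBR1 was called higher, with a log2 change of 2.79 ± 0.778 (SE; limma adjusted p = 0.00816) and a 95% confidence interval from 1.10 to 4.48. Its size rested on single libraries, since it was 2.03 without the first KYSE70 library and 3.65 without the third. It was 2.32 without the second and 3.34 without the first knockout library. A pseudocount of 5 gave 2.01, and limma without a mean-variance trend lost the call (adjusted p = 0.0588). SETD4 spans CBR1 on the opposite strand without sharing exon sequence, and CBR1-AS1 shares 464 exon bases with it. SETD4 had means of 812 (KYSE70) and 697 (NRF2null-KYSE70) normalized counts and CBR1-AS1 had 8.61 and 2.77. The part of these 2 genes in the CBR1 values was not tested. A lncRNA on the same strand, ENSG00000289001, shares 381 exon bases with CBR1 and was not analysed here, so its part in the CBR1 reads was not tested.

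The ratio of CBR1 to CBR3 therefore differed between the lines in both of its terms. Its log2 value, with 1 added to each normalized count, was -7.85 ± 1.58 in the parental and -3.39 ± 1.01 in the knockout libraries (SD, n = 3 each), which differ by 4.46. Libraries of the 2 lines did not overlap (exact permutation p = 0.10, 0.10 after adjustment over the 3 pairs). Even so, CBR1 remained the minor gene of the pair, at 0.0432 to 0.182 times the normalized count of CBR3 across the knockout libraries.

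CBR4 (ENSG00000145439, chromosome 4, 168863770 to 169010275) encodes a mitochondrial member of the same superfamily, which with HSD17B8 forms the ketoacyl reductase of mitochondrial fatty acid synthesis and can also reduce quinones. It had 1866, 1910 and 1672 normalized counts in the parental libraries and 2184, 1994 and 1904 in the knockout libraries. The lowest knockout library was just below the highest parental one. The log2 change of 0.16 ± 0.073 (SE) did not pass the threshold (limma adjusted p = 0.0807), with a 95% confidence interval from 9.14e-05 to 0.32. CBR4 shares 108 exon bases with PALLD on the other strand, whose mean was 4715 (KYSE70) against 12990 (NRF2null-KYSE70) normalized counts, and the part of PALLD reads in the CBR4 values was not tested.

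**Figure D2:**
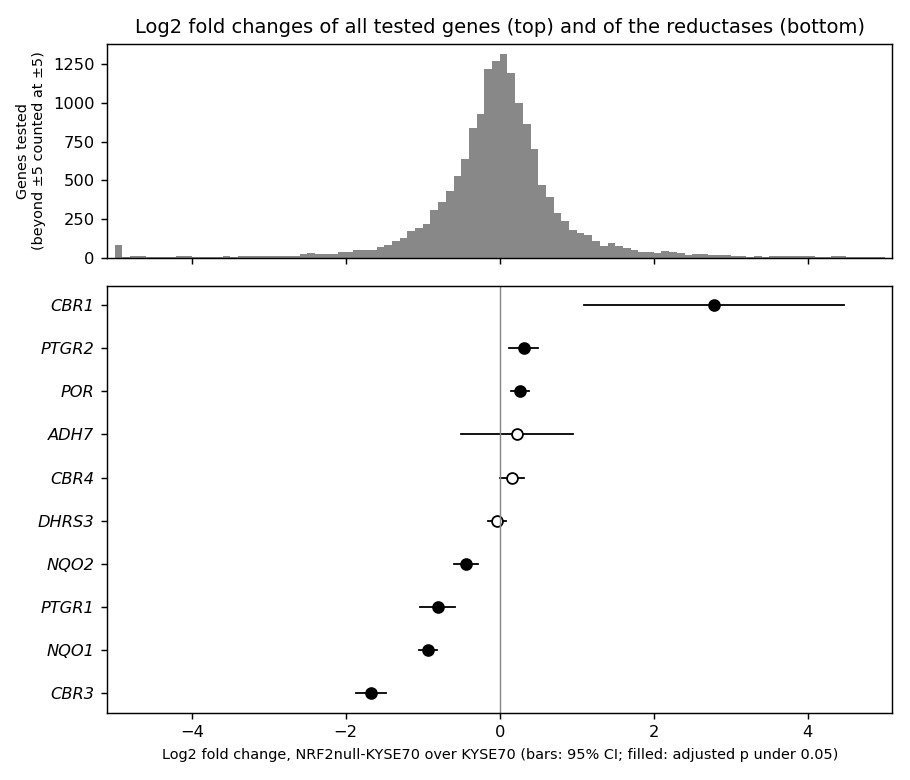
Top, histogram of the log2 fold changes (NRF2null-KYSE70 over KYSE70) of the 15994 tested genes. Bottom, the 10 reductases on the same axis with 95% confidence intervals, filled where the limma adjusted p was under 0.05. The interval of CBR1 is the widest, from 1.10 to 4.48, and CBR3 lies farthest to the left at -1.68.

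The prostaglandin reductases PTGR1 and PTGR2 reduce the enone of 15-keto prostaglandins, and PTGR1 also acts on enones such as 4-hydroxynonenal and on leukotriene B4. They belong to the medium-chain dehydrogenases/reductases. PTGR1 (ENSG00000106853, chromosome 9, 111549722 to 111599893) had 738, 817 and 901 normalized counts in the parental libraries and 423, 501 and 477 in the knockout libraries. PTGR1 fell to 57.1% without overlap, by a log2 change of -0.81 ± 0.104 (SE; limma adjusted p = 2.44e-05). PTGR2 (ENSG00000140043, chromosome 14, 73851831 to 73885726) had 556, 592 and 527 normalized counts in the parental libraries and 667, 684 and 723 in the knockout libraries. Here every knockout library was above every parental one. PTGR2 rose by a log2 change of 0.31 ± 0.089 (SE; limma adjusted p = 0.0100), a call that was lost when the median of neighbouring genes was subtracted (0.20, adjusted p = 0.0778).

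Within the libraries, the prostaglandin reductases changed places. PTGR1 had 1.33 to 1.71 times the normalized count of PTGR2 in KYSE70 and 0.634 to 0.732 times in NRF2null-KYSE70. The difference of the log2 ratio was -1.12, with a pooled SD of 0.157 between libraries (exact permutation p = 0.10, 0.10 after adjustment over the 3 pairs). It became -0.79 with the neighbouring genes subtracted. This crossing holds for normalized counts per gene. Per kilobase of all annotated exons of a gene, PTGR1 stayed above PTGR2 in both lines, at 217 ± 21.5 against 80.0 ± 4.67 normalized counts per kilobase in the parental line and 124 ± 10.6 against 99.0 ± 4.05 in the clone (SD, n = 3 libraries each). Lengths of single transcripts were not used, and this order depends on the length taken. PTGR2 shares 1455 exon bases with the opposite-strand lncRNA ENSG00000273711 (means of 19.8 in KYSE70 and 11.8 in the clone). It also shares 989 with the same-strand gene ENSG00000258653, which had no counts. PTGR1 shares 78 with ZNF483 on the other strand (148 and 185). The part of these genes in the PTGR1 and PTGR2 values was not tested.

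**Figure D3:**
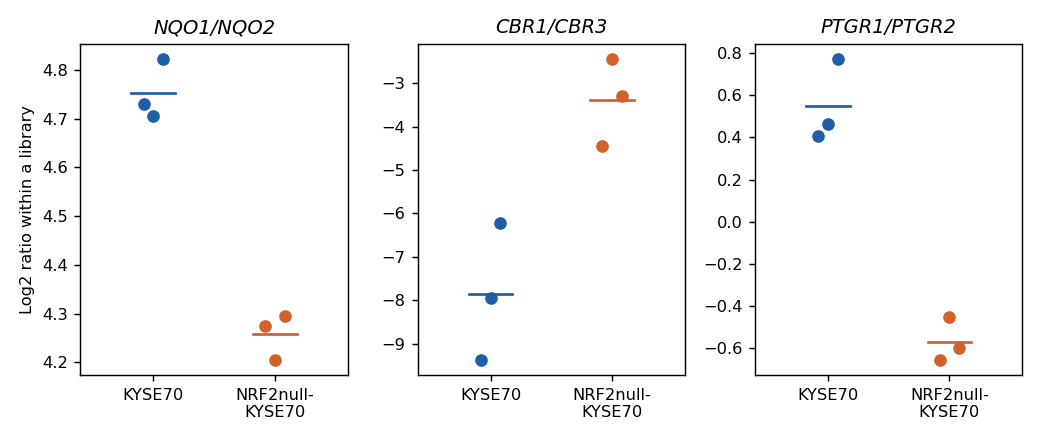
Log2 ratio of the normalized counts of related genes within each library, with 3 points per line and a bar at the mean. Axes differ between panels. The lines do not overlap in any panel; the ratio is lower in NRF2null-KYSE70 for NQO1/NQO2 (difference -0.50) and PTGR1/PTGR2 (-1.12) and higher for CBR1/CBR3 (4.46).

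POR (ENSG00000127948, chromosome 7, 75899200 to 75986855) encodes the flavoprotein that hands electrons from NADPH to microsomal cytochromes P450, heme oxygenase and squalene epoxidase, and that also reduces quinones by single electrons. It had 6156, 5848 and 5766 normalized counts in the parental libraries and 7269, 6635 and 7383 in the knockout libraries, without overlap. POR rose 1.20-fold, a log2 change of 0.26 ± 0.054 (SE; limma adjusted p = 0.00115). With the median of neighbouring genes subtracted it was 0.02 (adjusted p = 0.728), so the call was lost.

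ADH7 and DHRS3 act on retinoids. ADH7 (ENSG00000196344, chromosome 4, 99412261 to 99435510) encodes an alcohol dehydrogenase of the upper digestive tract that oxidizes retinol and ethanol, yet it was scarcely expressed, with 28, 50 and 28 reads in the parental and 32, 39 and 38 reads in the knockout libraries, which overlapped. Its log2 change of 0.22 ± 0.333 (SE; limma adjusted p = 0.591) had a 95% confidence interval from -0.50 to 0.95, so a change of either sign within these bounds was not resolved with 3 libraries per line. DHRS3 (ENSG00000162496, chromosome 1, 12567910 to 12618210) encodes the reductase that returns retinaldehyde to retinol. It had 2528, 2613 and 2642 normalized counts in the parental libraries and 2477, 2604 and 2505 in the knockout libraries, and the lines overlapped. DHRS3 did not pass, at a log2 change of -0.04 ± 0.054 (SE; limma adjusted p = 0.581). Its 95% confidence interval from -0.15 to 0.08 was much narrower than that of ADH7.

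Levels were then compared between the members per kilobase of exon sequence, since longer transcripts collect more reads. In KYSE70 the order was NQO1 at 16411, CBR3 at 1251, POR at 952, NQO2 at 745, DHRS3 at 738, CBR4 at 355, PTGR1 at 217, PTGR2 at 80.0, ADH7 at 11.5 and CBR1 at 2.91 normalized counts per kilobase. NQO2 and DHRS3 overlapped between libraries in this order, and no other neighbours did. In NRF2null-KYSE70 the order was NQO1 at 8603, POR at 1140, DHRS3 at 719, NQO2 at 551, CBR4 at 397, CBR3 at 390, PTGR1 at 124, PTGR2 at 99.0, CBR1 at 17.3 and ADH7 at 13.2. Here CBR4 overlapped with CBR3, and CBR1 with ADH7. CBR3 thus went from the second to the sixth place.

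NQO1 made up 79.0% ± 0.50 of the summed level per kilobase of the 10 members in the parental libraries and 71.3% ± 1.08 in the knockout libraries (SD, n = 3 each). The share of POR was 4.59% ± 0.28 and 9.48% ± 0.83. The summed level went from 20764 ± 566 to 12054 ± 561 normalized counts per kilobase, or 58.1% of the parental sum. Without NQO1, the sum of the other 9 was 79.3% of the parental one.

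To place the members on their chromosomes, each was set beside its 40 nearest tested protein-coding genes. CBR3 lay below all 40 of its neighbours, which had a median log2 fold change of 0.22, and CBR1 lay above all 40 of its own. Since the genes are adjacent, each was among the neighbours of the other. The neighbour closest to CBR3 in fold change was RCAN1, at -1.59 against -1.68 for CBR3, and the difference between them was not tested. NQO1 had 1 neighbour with a lower fold change, PTGR1 had 3 and NQO2 had 4. The medians around these genes were -0.02, -0.22 and 0.15. Subtracting the neighbours left NQO1 at -0.91, PTGR1 at -0.59 and NQO2 at -0.58, all of which passed the test. POR, in contrast, lay in the middle, with 21 neighbours below it and a median of 0.23 around it, and so did CBR4, with 19 below it. The median was subtracted as a fixed value, so p-values after subtraction leave out the spread of the neighbours. Around POR, the quartiles of the neighbours were -0.03 and 0.60.

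**Figure D4:**
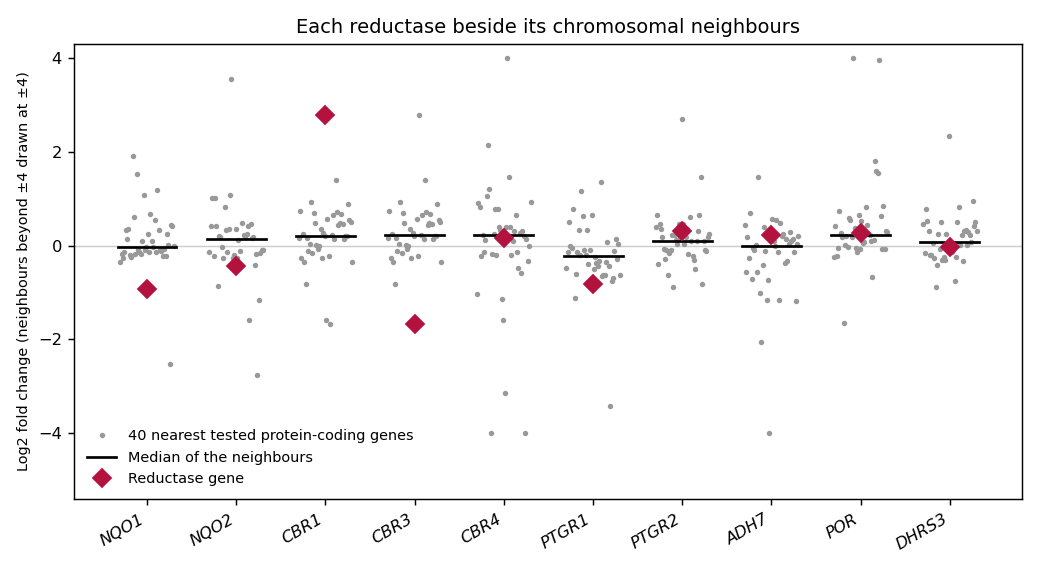
Log2 fold change (NRF2null-KYSE70 over KYSE70) of each reductase (diamond) and of its 40 nearest tested protein-coding genes (dots, in chromosomal order), with the neighbours' median as a line. Neighbours beyond 4 in size are drawn at 4. CBR1 lies above all dots around it, CBR3 lies just below the lowest of its own (-1.59), and POR lies on the median of its neighbours (0.23).

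The wider pathways were described with lists of related genes, for which counts are of genes at a limma adjusted p under 0.05 and are read against the background of 28.3% lower and 29.3% higher. Some counted genes had a mean under 10 in 1 line and passed the filter only through the other. Among them were AKR1B15, AKR7A3, PTGER2 and CYP2J2, counted lower, and CYB5A, counted higher. Of 13 other flavin-dependent and related NAD(P)H reductases tested, 8 were lower and 4 were higher, with a median log2 fold change of -0.30. The largest changes were those of BLVRB, which reduces biliverdin and flavins (52.7% of the parental level), CYB5R1 (55.7%), GSR, which regenerates glutathione (58.2%), and TXNRD2, the mitochondrial thioredoxin reductase, which rose to 168%. By limma, adjusted p-values among these 4 ran from 7.02e-09 for GSR to 3.72e-05 for CYB5R1.

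The aldo-keto reductases act on many of the same carbonyl substrates as CBR1, CBR3 and PTGR1. Of 11 tested, 8 were lower and the other 3 did not pass, with a median of -1.19. AKR1B10, AKR1C1 and AKR1C3 fell to 3.26%, 20.1% and 36.6%, and AKR1C2 from 127481 to 56084 normalized counts, although the near-identical AKR1C genes may share reads. Whether the fold changes of the aldo-keto reductases differ from those of the 10 members was not tested.

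Other members of the enzyme superfamilies moved in both directions. Of 36 other short-chain dehydrogenases/reductases tested, 14 were lower and 8 higher, with a median of -0.11. SDR16C5, a retinol dehydrogenase of epithelia, rose from a mean of 58.3 ± 7.43 to 2551 ± 234 normalized counts (SD, n = 3 libraries each), whereas HSD11B2, which inactivates cortisol, BDH2 and DHRS2 fell to 43.5%, 44.3% and 49.2%. Of 9 other medium-chain dehydrogenases/reductases, 2 were lower and 2 higher, with a median of -0.00. TP53I3, a quinone oxidoreductase named for its induction by p53, fell to 56.0%, and CRYZ, the zeta-crystallin quinone reductase, to 85.5%. VAT1 rose to 146% and MECR, the enoyl reductase of mitochondrial fatty acid synthesis, to 119%.

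Around DHRS3 and ADH7, 16 genes of retinoid handling were tested, of which 8 were higher and 3 lower, with a median of 0.19. ALDH1A3, which oxidizes retinaldehyde to retinoic acid, rose from a mean of 13320 ± 401 to 83395 ± 4546 normalized counts (SD, n = 3 libraries each), and ALDH1A1, which acts on the same substrate, rose 5.54-fold. The retinoic acid receptors RARB and RARG fell to 6.86% and 53.6% of the parental level. RDH10, which runs the retinol to retinaldehyde step opposite to DHRS3, had means of 2695 and 2747 and did not pass (limma adjusted p = 0.687).

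Around PTGR1 and PTGR2, 14 genes of prostaglandin and leukotriene metabolism were tested, of which 9 were lower and 3 higher, with a median of -0.50. PTGS2, the inducible cyclooxygenase, rose from a mean of 98.1 ± 11.3 to 2267 ± 110 normalized counts (SD, n = 3 libraries each), and the prostaglandin E2 receptor PTGER4 rose 9.45-fold and the transporter SLCO2A1 4.86-fold. PTGES, a prostaglandin E synthase, fell to 16.9%. HPGD, which makes the 15-keto prostaglandins that PTGR1 and PTGR2 reduce, was below the filter, with means of 3.11 and 3.36 normalized counts.

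Of 15 electron acceptors and partners of POR tested, 7 were lower and 5 higher, with a median of -0.14, which was the same with CYB5A, a gene without a read in KYSE70, placed at its bound. CYP4F11 fell from a mean of 6657 ± 197 to 99.8 ± 16.8 normalized counts (SD, n = 3 libraries each), CYP4F3 to 18.6% and CYP1A1 to 58.9%, whereas CYP1B1 rose to 136%. By limma, adjusted p-values among these 4 ran from 5.6e-13 for CYP4F11 to 0.000169 for CYP1B1.

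**Figure D5:**
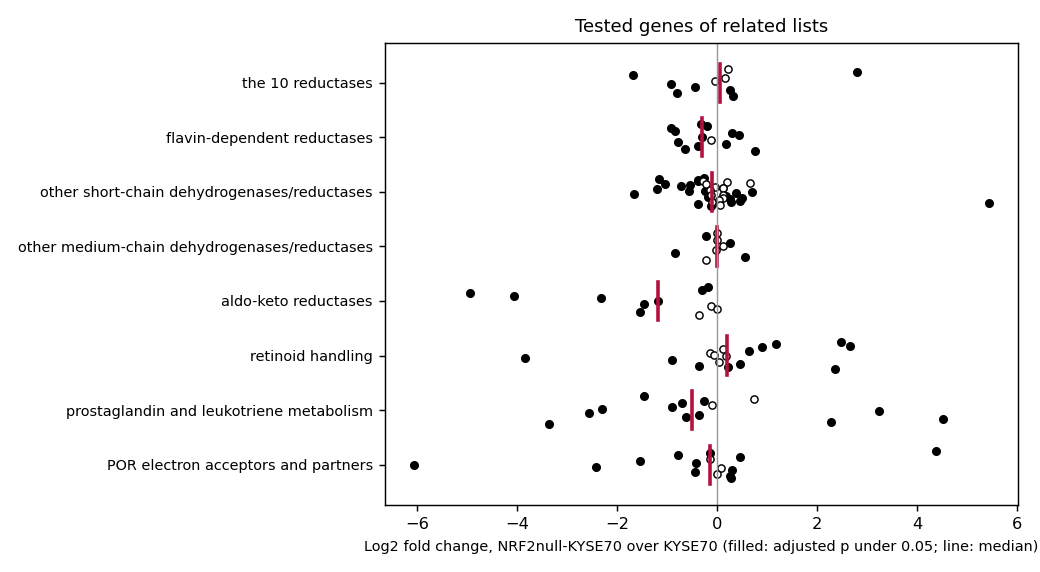
Log2 fold changes (NRF2null-KYSE70 over KYSE70) of the tested genes in each list, filled where the limma adjusted p was under 0.05, with the median as a line. The medians run from -1.19 in the aldo-keto reductases to 0.19 in retinoid handling, and that of the 10 reductases is 0.06.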

How the data were processed

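Reads were mapped by the authors to hg38 using STAR (2.6.90c), who counted them per gene with featureCounts (1.5.1) and normalized the counts with DESeq2. The table they deposited holds these normalized counts, a signal per gene and library. The columns named the cell line without a replicate number, so libraries are numbered by their order in the table. Every value was a whole multiple of that of 1 read (tolerance 0.05; 100% of values), and the recovered reads were used in alternatives. Gene identifiers were matched to GENCODE v44 (58472 of 58884 found).

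Genes averaging 10 or more normalized counts over the 6 libraries were tested with limma (3.58.1; lmFit and eBayes with a trend) on log2(normalized count + 1), with the line as the only term, two-sided. For low genes the fold change depends on the number added before the log. The log2 fold change of CBR1 was 3.18 with 0.1 added, 2.79 with 1 and 2.01 with 5, and DESeq2 on recovered reads gave 2.60. The code was tested on simulated data. Ratios between relatives were compared by exact permutation. Members and lists were chosen with earlier results of these data known. Of each list, up to 4 genes were named. They had the largest fold change among genes with an adjusted p under 0.05, a mean of 100 or more and non-overlapping lines. CYB5A, CYP2J2, AKR1B15, AKR7A3, PTGER2, RDH10, HPGD, RCAN1, the markers and the genes overlapping members were named after their values were seen.

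The settings varied were the pseudocount (0.1 or 5), the filter (absent, or a mean of 50), the scaling (total reads, TMM or quantile), limma with robust eBayes or no trend, DESeq2 (1.42.0) and edgeR (4.0.16) on recovered reads, each library left out, subtraction of the neighbours' median, and a threshold of 1 on the log2 fold change. DESeq2 called 9202 and edgeR 9201 genes at an adjusted p under 0.05, where limma called 9206.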

Additional observations from a re-analysis of the deposited data

How the results depend on the processing

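NQO1, NQO2, CBR3 and PTGR1 kept their direction and an adjusted p under 0.05 in all 18 alternatives run for each, with log2 fold changes from -1.03 to -0.88, -0.58 to -0.38, -1.90 to -1.62 and -0.88 to -0.59. CBR1 ranged from 2.01 to 3.65 over 17 alternatives, and its adjusted p from 0.000807 to 0.0588. The 7 members called became 6 with a filter at a mean of 50, which left CBR1 and ADH7 untested, and 6 in limma without a trend. With the neighbours' median subtracted, 5 were called, POR and PTGR2 were lost, and CBR4 was reversed to -0.063 (adjusted p = 0.492). With a log2 fold change of at least 1 in size, 2 members and 2344 of all genes passed, where 9206 passed without it. Each library left out in turn gave 7 members and from 8159 to 9343 genes. The log2 difference of the NQO1/NQO2 ratio moved to -0.58 under quantile normalization and to -0.33 with the neighbours subtracted, which also moved PTGR1/PTGR2 to -0.79. The CBR1/CBR3 difference lay between 3.68 and 5.27 over its 10 alternatives. Its exact permutation p was 0.2 without the second NRF2null-KYSE70 library, where the main setting gave 0.1. The cause of these shifts was not tested. No paired analysis was possible because columns are labelled by cell line alone. CBR1 and ADH7 had few reads and wide intervals.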
